A study of Homo sapiens with 12 samples.

Results

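To describe which genes move with PI3K inhibition alone, the transcriptomes of C4.2B cells given GDC-0941 were compared with those of cells given the vehicle, DMSO. C4.2B is an established human prostate cancer line that grows under castration, and GDC-0941 inhibits the class I PI3K enzymes. The comparison took 6 of the 12 libraries of the series, all those labelled GDC (0.5 µM GDC-0941, 24 h) and DMSO (vehicle, 24 h), with replicates A, B and C in each. All 12 libraries are polyA RNA-seq of the same line in medium with 10% charcoal-stripped serum, from which steroid hormones are largely removed. The paper states that cells were moved from ordinary serum to this serum when the 24 h of treatment began. The remaining 6 libraries received the EZH2 inhibitor GSK126 (5 µM, with 6 days of pretreatment), either alone (GSK) or with 0.5 µM GDC-0941 for 24 h (COMBO), and were used to look up the same genes. The count files listed 23228 genes, of which 14189 had enough counts to be tested. The libraries are plates of 1 cell line, so each p-value measures the spread between these plates, which may be technical.

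Counts in genes ranged from 10199514 to 44437751 in DMSO, where replicate C was the deepest library of the series, and from 11764649 to 17022613 in GDC. Reads outside annotated genes averaged 14.2% in DMSO and 15.6% in GDC. Luminal prostate markers summed to between 4141 and 4329 CPM (counts scaled to a common library size, with TMM factors) in DMSO and between 5272 and 5376 CPM in GDC. The leukocyte markers PTPRC, CD3D, CD3E and MS4A1, the fibroblast markers COL1A2, DCN, LUM, DES and POSTN, and the endothelial markers PECAM1 and ERG were at 0 in all 6 libraries. Other members of these lists had counts. In DMSO the fibroblast markers VIM and COL1A1 averaged 34.0 and 10.5 CPM, and the leukocyte marker CD68 averaged 5.31 CPM. The endothelial marker VWF averaged 2.97 CPM in DMSO and 5.66 CPM in GDC.

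Class I PI3K converts the membrane lipid PIP2 to PIP3, which recruits and activates the kinase AKT. AKT phosphorylates FOXO transcription factors and so keeps them out of the nucleus, and it activates mTORC1, a kinase complex that promotes ribosome production, translation and lipid synthesis and restrains autophagy. In prostate cancer cells the PI3K pathway is known to restrain the expression of androgen-regulated genes, and the FOXO factors raise the expression of growth factor receptors that lie upstream of PI3K.

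GDC-0941 moved a large share of the transcriptome by small amounts. Of the 14189 genes, 2841 were higher and 2843 lower in GDC than in DMSO (quasi-likelihood test of edgeR, two-sided, Benjamini-Hochberg adjusted p under 0.05), which is 40.1% called in all, 20.0% in the higher and 20.0% in the lower direction. These shares are the background against which the gene groups below are read. The larger changes were mostly increases, since 941 genes rose (6.63%) and 315 fell (2.22%) by at least 0.5 on the log2 scale, and 245 rose (1.73%) and 21 fell (0.148%) by at least 1. The counts at 0.5 were 778 and 476 without GDC B and 765 and 522 with no filter on low counts. The CPM ranges of the 2 arms did not overlap for 50.7% of the genes. The median log2 fold change over all genes was 0.016, and it moved to -0.027 with DESeq2 size factors and to 0.050 with library totals. With the first of these scalings 40.0% of the called genes were higher and with the second 58.5%, against 50.0% here, so the even split of directions rests on the scaling. Without DMSO C, 1844 of 14265 genes tested were higher. Leaving out any DMSO or GDC library gave 1844 to 2147 genes higher, which was 39.3% to 40.6% of the called genes. List counts from such fits given below are therefore not to be read against the 20.0%, since calls of increases fell over all genes too.

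**Figure D1:**
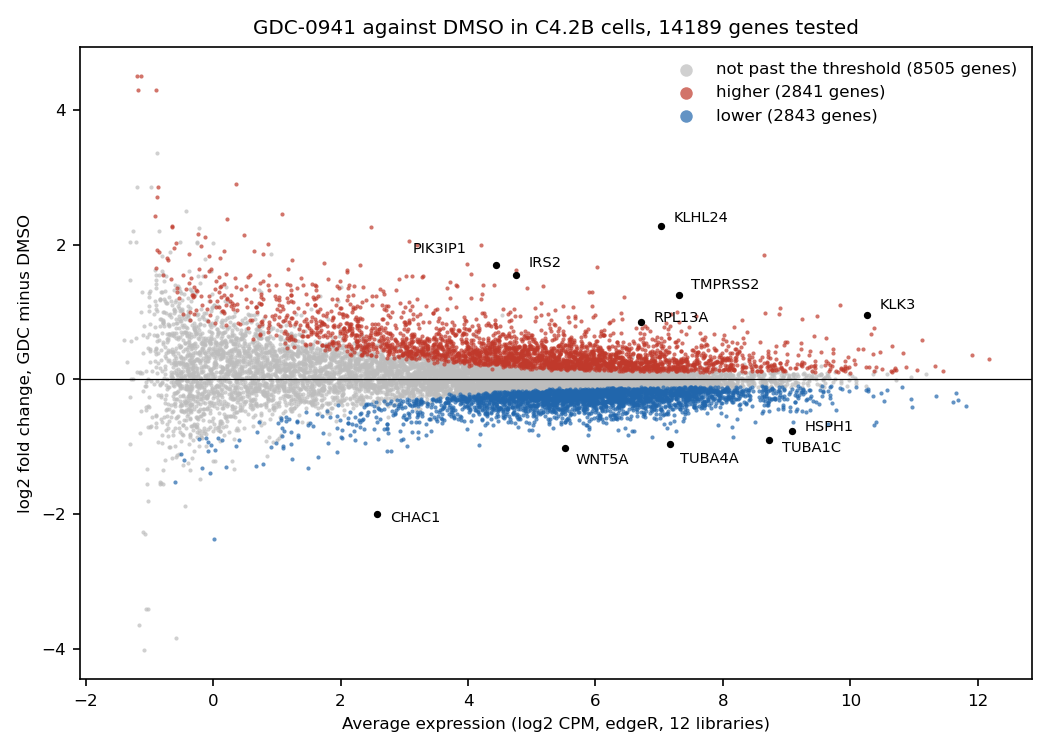
Mean expression of each tested gene (x axis, log2 CPM over the 12 libraries) against its log2 fold change in GDC over DMSO (y axis), with genes past the threshold in colour by direction and the others in grey. Most of the 5684 called genes lie within 0.5 of 0, and the far points are mostly on the upper side, where 245 genes passed a log2 fold change of 1 against 21 on the lower side.

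Among genes with a mean log2 CPM of at least 2, those with the largest increases included regulators of insulin and PI3K signalling, ubiquitin ligase adaptors and a glucose transporter. KLHL24 (chromosome 3, 183635610 to 183684519, on hg38 as all positions here), a substrate adaptor of the cullin-3 ubiquitin ligase, stood at 22.8, 19.6 and 19.9 CPM in DMSO A, B and C and at 95.7, 92.9 and 108 CPM in GDC A, B and C. The arms were far apart, and KLHL24 rose, with a log2 difference of 2.27 (SE 0.073, adjusted p = 5.92e-14). PIK3IP1 (chromosome 22, 31281594 to 31292534), a membrane protein that binds and inhibits PI3K, stood at 2.84, 2.93 and 3.73 CPM in DMSO and 12.5, 9.61 and 10.9 CPM in GDC. It rose without overlap, with a log2 change of 1.69 (SE 0.14, adjusted p = 1.77e-08). IRS2 (chromosome 13, 109752695 to 109786583), the adaptor that links the insulin and IGF1 receptors to PI3K, stood at 9.68, 13.0 and 11.3 CPM in DMSO and 31.5, 34.7 and 35.0 CPM in GDC. Its log2 fold change was 1.55 (SE 0.089, adjusted p = 2.18e-10), again with no overlap. SLC2A12 (chromosome 6, 133987581 to 134052624), which encodes the glucose transporter GLUT12, stood at 7.16, 7.24 and 8.25 CPM in DMSO and 22.4, 25.4 and 23.9 CPM in GDC. All 3 GDC libraries were above all 3 DMSO libraries, and the log2 change was 1.63 (SE 0.089, adjusted p = 1.17e-10).

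The other genes among the 15 largest increases were TCP11L2 (2.01, SE 0.14), C11orf92 (1.84, SE 0.073), ATP8A1 (1.71, SE 0.18), YPEL1 (1.57, SE 0.11), ADAM7 (1.54, SE 0.15), FBXO32 (1.54, SE 0.14), SEMA6D (1.41, SE 0.14), C17orf103 (1.40, SE 0.14), LTBP2 (1.40, SE 0.13), YPEL3 (1.39, SE 0.11) and PBXIP1 (1.38, SE 0.079), with log2 fold changes in parentheses. ATP8A1 is a phospholipid flippase, FBXO32 (atrogin-1) is a ubiquitin ligase subunit known from muscle atrophy, SEMA6D is a semaphorin, and LTBP2 binds the extracellular matrix. Exons of TCP11L2 overlap CKAP4, those of C11orf92 overlap C11orf93, those of SLC2A12 overlap TBPL1 and those of YPEL1 overlap PPIL2, and since the use of strand in counting was not stated, their counts are uncertain.

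The largest decreases covered glutathione turnover, growth factor ligands, tubulins and a nuclear import receptor. CHAC1 (chromosome 15, 40952962 to 40956512), an enzyme that degrades glutathione, stood at 10.0, 11.1 and 11.6 CPM in DMSO and 2.56, 3.39 and 2.28 CPM in GDC. It fell by the largest amount among the genes named here, with a log2 change of -2.00 (SE 0.16, adjusted p = 2.40e-08), and the arms did not overlap. WNT5A (chromosome 3, 55465715 to 55490539), a secreted Wnt ligand, stood at 26.8, 28.4 and 28.4 CPM in DMSO and 14.1, 13.2 and 14.4 CPM in GDC. Every GDC library was below every DMSO library, and the log2 change was -1.01 (SE 0.074, adjusted p = 5.08e-09). KPNA2 (chromosome 17, 68035636 to 68047364), an importin alpha that carries proteins into the nucleus, stood at 499, 494 and 487 CPM in DMSO and 267, 286 and 266 CPM in GDC. It fell with no overlap, with a log2 change of -0.85 (SE 0.043, adjusted p = 3.88e-11). The other 12 genes were HBEGF (-1.06, SE 0.15), an EGF receptor ligand, MYBL1 (-0.99, SE 0.11), a MYB family transcription factor, POLR3G (-0.97, SE 0.086), an RNA polymerase III subunit, TUBA4A (-0.96, SE 0.049) and TUBA1C (-0.90, SE 0.045), which encode alpha tubulins, HIST1H2BJ (-0.94, SE 0.14), a histone H2B gene, CCDC163P (-0.90, SE 0.15), CCDC83 (-0.89, SE 0.16), GPX8 (-0.88, SE 0.11), a peroxidase of the endoplasmic reticulum, MFSD2A (-0.87, SE 0.11), a lysophospholipid transporter, TNFRSF12A (-0.86, SE 0.17), the receptor of the cytokine TWEAK, and SLC7A11 (-0.85, SE 0.069), the cystine and glutamate antiporter. KPNA2 has 3 annotated pseudogenes, TUBA1C shares sequence with other alpha tubulins, and exons of POLR3G, TUBA4A, TUBA1C and TNFRSF12A overlap another gene, so the counts of these genes are uncertain.

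**Figure D2:**
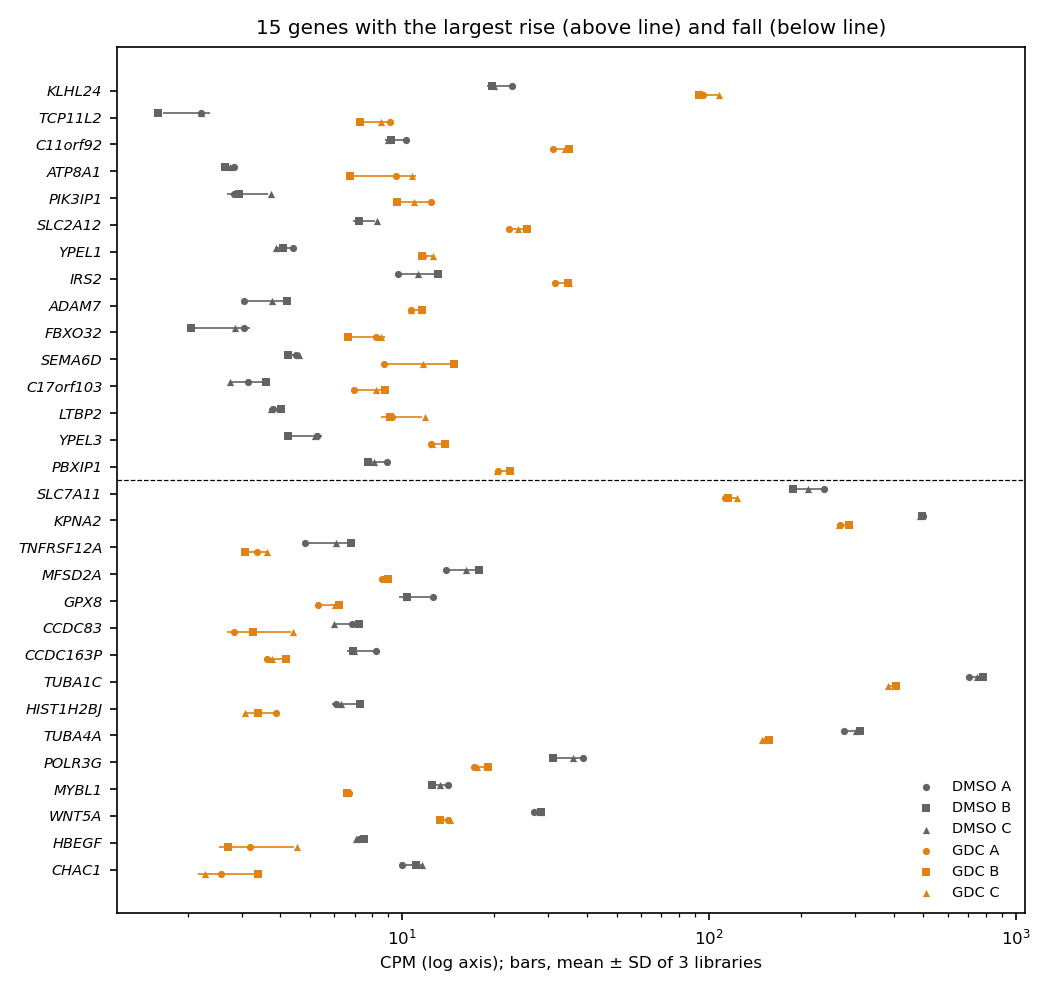
Expression (x axis, CPM on a log scale) in each DMSO and GDC library (points) of the 15 genes with the largest increase and the 15 with the largest decrease, with the mean and SD of 3 libraries. The GDC points lie to the right of the DMSO points for the 15 higher genes and to the left for the 15 lower genes, without overlap, which the choice of these genes required.

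The FOXO target genes had the highest share of genes called higher among the lists with at least 5 genes tested. Members of the lists were chosen with earlier results of these data known, so this rank and these shares are descriptions and not tests. Of 36 genes on the list, 32 were tested, 27 rose and 1 fell, against a background of 20.0% in either direction, and their median log2 fold change was 0.50 against 0.016 over all genes. The FOXO factors themselves rose, with log2 fold changes of 0.82 (SE 0.12) for FOXO4, 0.54 (SE 0.058) for FOXO3 and 0.28 (SE 0.11) for FOXO1. FOXO1 lost its call in 14 of 20 alternative fits, among them those without DMSO A, DMSO C or any GDC library (adjusted p = 0.334 without DMSO C). FOXO4 (chromosome X, 71095851 to 71103532) stood at 11.9, 8.68 and 11.8 CPM in DMSO and 20.6, 18.0 and 19.2 CPM in GDC. The arms did not overlap for FOXO4. Targets that act on PI3K signalling itself included PIK3IP1 and IRS2 above and the receptors IGF1R (0.80, SE 0.081), INSR (0.53, SE 0.058) and ERBB3 (0.49, SE 0.046), with log2 fold changes in parentheses. Targets that restrain growth included CCNG2 (0.68, SE 0.060), an atypical cyclin of arrested cells, RBL2 (0.52, SE 0.045), the pocket protein p130, MXI1 (0.56, SE 0.049), a MYC antagonist, and SESN1 (0.63, SE 0.058), an inhibitor of mTORC1.

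The remaining FOXO targets act in cell death, turnover and redox control. BBC3 (chromosome 19, 47220822 to 47232766), which encodes the BH3-only protein PUMA, stood at 2.84, 2.27 and 3.18 CPM in DMSO and 5.92, 5.91 and 6.64 CPM in GDC. It rose without overlap, with a log2 change of 1.12 (SE 0.14, adjusted p = 4.98e-06), and its exons contain 2 microRNA genes. TXNIP (chromosome 1, 145992435 to 145996579), which restrains glucose uptake and binds thioredoxin, stood at 125, 119 and 121 CPM in DMSO and 254, 248 and 256 CPM in GDC. The arms did not overlap, and TXNIP rose by a log2 change of 1.06 (SE 0.041, adjusted p = 1.23e-12). The log2 fold change was 0.72 (SE 0.11) for SEPP1, the plasma selenium carrier selenoprotein P, 0.58 (SE 0.067) for PINK1, a kinase of mitochondrial turnover, and 0.25 (SE 0.040) for CAT, catalase. Well-known targets that did not pass the threshold were the CDK inhibitor CDKN1B (-0.047, SE 0.064, adjusted p = 0.598), the mitochondrial superoxide dismutase SOD2 (0.0097, SE 0.059, adjusted p = 0.916), the death ligand TNFSF10 (0.18, SE 0.15, adjusted p = 0.350) and GADD45A (-0.048, SE 0.10, adjusted p = 0.739). The single list member that fell was the mitophagy receptor BNIP3 (-0.24, SE 0.056). Over all the alternative settings the number of FOXO targets called higher stayed between 23 and 27.

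The promoters of TXNIP and FOXO4 are shown because each holds a copy of the FOXO core motif GTAAACA (searched on both strands, in 250 bases before to 50 after the RefSeq start, GRCh38.p14), which is in capitals.
TXNIP (chr1:145996530-145996829, minus strand): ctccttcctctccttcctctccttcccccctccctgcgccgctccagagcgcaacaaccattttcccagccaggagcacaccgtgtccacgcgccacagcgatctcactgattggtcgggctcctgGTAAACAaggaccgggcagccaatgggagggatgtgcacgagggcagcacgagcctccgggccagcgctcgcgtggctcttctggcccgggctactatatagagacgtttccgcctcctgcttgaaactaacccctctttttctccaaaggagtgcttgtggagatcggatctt
FOXO4 (chrX:71095601-71095900, plus strand): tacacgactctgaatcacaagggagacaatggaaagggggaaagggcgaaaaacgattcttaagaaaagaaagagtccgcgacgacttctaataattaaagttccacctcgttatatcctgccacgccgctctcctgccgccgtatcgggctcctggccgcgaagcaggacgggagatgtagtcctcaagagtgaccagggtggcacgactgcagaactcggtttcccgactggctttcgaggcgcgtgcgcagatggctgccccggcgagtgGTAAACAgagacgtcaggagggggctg
In TXNIP the motif begins at position -124 from the start, and in FOXO4 at position 23. The motif was found in 4 of 28 FOXO target promoters with a sequence (14.3%) and in 2.22% of the promoters of tested genes. The promoter of CDK1, a gene that fell, holds these letters too, in lower case where it is printed with the G2/M genes. A match is a description of the letters and not evidence of binding.

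Receptors and adaptors upstream of PI3K also shifted. Of the 34 receptor tyrosine kinases tested, 13 rose and 3 fell, with a median log2 fold change of 0.18. The increases included IGF1R, INSR and ERBB3 above, the EGF receptor family members EGFR (0.41, SE 0.074) and ERBB2 (0.37, SE 0.051), and PDGFRB (1.06, SE 0.21), while the hepatocyte growth factor receptor MET (-0.67, SE 0.23) and the ephrin receptor EPHA2 (-0.63, SE 0.10) fell. ERBB3 (chromosome 12, 56076799 to 56103505), the kinase-poor partner of ERBB2, stood at 220.3, 228 and 214 CPM in DMSO and 308, 298 and 321 CPM in GDC, with an adjusted p of 1.19e-07. These ranges did not overlap, and those of MET did, which was not called without DMSO A, DMSO C or GDC B (adjusted p = 0.0537, 0.108 and 0.103). Without DMSO C, GDC B or GDC C, 8 receptor genes were called higher. Of 25 insulin and IGF ligands, binding proteins and adaptors, 10 rose and 3 fell, with a median log2 fold change of 0.31. Increases of at least 0.5 were seen for the adaptors SHC2 (2.06, SE 0.27), IRS2 and GAB1 (0.56, SE 0.12), the binding protein IGFBP5 (0.81, SE 0.14) and the ligand IGF1 (0.61, SE 0.062). The members that fell were the adaptor SHC1 (-0.22, SE 0.050) and the phosphatases PTPN11 (-0.16, SE 0.046) and PTPN1 (-0.14, SE 0.046).

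The PI3K, AKT and mTORC1 components themselves showed no common direction, with 14 of 61 higher, 12 lower and a median log2 fold change of 0.01. Among the catalytic subunits that GDC-0941 inhibits, PIK3CA (chromosome 3, 179148114 to 179240093) stood at 14.4, 18.0 and 15.4 CPM in DMSO and 22.0, 20.3 and 24.5 CPM in GDC. It rose without overlap, with a log2 change of 0.47 (SE 0.085, adjusted p = 2.05e-04), and its exons overlap KCNMB3. The other subunits did not pass, with log2 fold changes of -0.036 (SE 0.049, adjusted p = 0.597) for PIK3CB and 0.099 (SE 0.054, adjusted p = 0.155) for PIK3CD, and PIK3CG had 0 counts in all 6 libraries, which allows up to 3 counts per library. Transcript level does not measure the activity of these kinases. Members that rose included the phosphatase INPP4B (0.73, SE 0.096), which removes a phosphate from a PI3K product, and the amino acid sensing GTPase RRAGD (0.64, SE 0.081). Members that fell included the kinase SGK1 (-0.91, SE 0.18), the AKT-binding pseudokinase TRIB3 (-0.66, SE 0.061) and the mTORC1 inhibitors SESN2 (-0.55, SE 0.076) and DDIT4 (-0.52, SE 0.054). Without DMSO C or GDC A, 8 members of this list were called higher.

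Genes of the cell division cycle fell together. Of 60 G2/M and mitosis genes 59 fell and 0 rose, with a median log2 fold change of -0.49, and 58 had lower and non-overlapping CPM in GDC, against 24.8% of all genes. CDC20 (chromosome 1, 43358981 to 43363203), an activator of the anaphase-promoting complex, stood at 244, 272 and 258 CPM in DMSO and 156, 152 and 148 CPM in GDC. It fell without overlap, with a log2 change of -0.77 (SE 0.054, adjusted p = 3.08e-09). PLK1 (chromosome 16, 23677656 to 23690367), a mitotic kinase, stood at 243, 251 and 245 CPM in DMSO and 147, 152 and 148 CPM in GDC. Its log2 fold change was -0.73 (SE 0.047, adjusted p = 1.16e-09), with all 3 GDC libraries below all 3 DMSO libraries. PLK1 overlaps ERN2, so its counts are uncertain. AURKA (chromosome 20, 56369389 to 56392337), a centrosome kinase, stood at 169, 177 and 173 CPM in DMSO and 98.2, 105 and 101 CPM in GDC. It fell to a similar extent, with a log2 change of -0.77 (SE 0.050, adjusted p = 1.16e-09). The mitotic kinase CDK1 (-0.71, SE 0.064) fell as well, and the kinesin KIF15 (-0.046, SE 0.070, adjusted p = 0.634) was the member that did not pass. In bulk RNA, fewer cells in a phase of the cycle and less of these transcripts per cell cannot be told apart.

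The promoters of CDK1, CDC20 and PLK1 are shown because they hold the cell cycle homology region motif TTTGAA, known from genes expressed in G2 and mitosis (both strands, same window and build, motif in capitals).
CDK1 (chr10:60778081-60778380, plus strand): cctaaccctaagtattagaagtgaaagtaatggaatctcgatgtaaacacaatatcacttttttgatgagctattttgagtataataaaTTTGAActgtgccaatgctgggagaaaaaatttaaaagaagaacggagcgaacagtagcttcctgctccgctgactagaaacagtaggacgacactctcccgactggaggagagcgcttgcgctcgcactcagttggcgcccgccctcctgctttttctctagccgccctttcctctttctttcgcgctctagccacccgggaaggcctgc
CDC20 (chr1:43358731-43359030, plus strand): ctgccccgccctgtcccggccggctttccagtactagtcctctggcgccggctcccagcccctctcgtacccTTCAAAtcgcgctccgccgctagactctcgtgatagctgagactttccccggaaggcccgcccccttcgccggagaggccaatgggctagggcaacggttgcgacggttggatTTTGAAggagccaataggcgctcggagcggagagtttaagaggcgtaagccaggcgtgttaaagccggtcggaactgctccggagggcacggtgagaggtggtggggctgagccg
PLK1 (chr16:23678639-23678938, plus strand): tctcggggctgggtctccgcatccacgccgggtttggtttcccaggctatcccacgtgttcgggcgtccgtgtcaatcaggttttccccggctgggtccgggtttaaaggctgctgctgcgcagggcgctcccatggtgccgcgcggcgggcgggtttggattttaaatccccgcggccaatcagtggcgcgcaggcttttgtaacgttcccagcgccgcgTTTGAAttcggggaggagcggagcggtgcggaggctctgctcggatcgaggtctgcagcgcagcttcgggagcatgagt
The motif lies at position -161 in CDK1, at -178 and -65 in CDC20 and at -29 in PLK1, counted from the RefSeq start to its first base on the strand shown. It was found in 34 of the 52 G2/M promoters with a sequence (65.4%), in 9.44% of the 10760 promoters of tested genes and in 15.4% of all 27303 promoters in the table. It was also found in 72 of 249 promoters of genes that fell by at least 0.5 (28.9%). The motif CCAAT was in 76.9% of the G2/M promoters and in 36.7% of those of tested genes. The PLK1 window lies inside the gene span given above, so the annotations used for span and promoter place its start differently.

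G1/S and DNA replication genes fell as a group but by less. Of 60 genes 47 fell and 1 rose, with a median log2 fold change of -0.29. The replication licensing factor CDC6 (chromosome 17, 40287879 to 40304657) stood at 142, 155 and 158 CPM in DMSO and 103, 105 and 96.6 CPM in GDC. It fell without overlap, with a log2 change of -0.59 (SE 0.051, adjusted p = 4.65e-08). The phosphatase CDC25A (-0.63, SE 0.053) and the ribonucleotide reductase subunit RRM2 (-0.61, SE 0.052) fell by similar amounts. The motif TTTCCCGC, a site of the E2F factors that drive this phase, was in 12 of 51 promoters of the list (23.5%) and in 2.55% of those of tested genes.

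Regulators of cell cycle entry moved in both directions. This list holds the D-type cyclins, their kinases and CDK inhibitors, and also pocket proteins, G-type cyclins, E2F factors and antiproliferative genes. In all 7 of 25 rose and 10 fell, with a median log2 fold change of -0.15. Of the D-type cyclins, kinases and CDK inhibitors only CDKN1C rose, while CCND3, CDK4, CDKN1A, CDKN2B, CDKN2C and CDKN2D fell. Genes that slow the cycle and rose included the CDK inhibitor CDKN1C (1.36, SE 0.18) (p57), the antiproliferative gene BTG1 (0.95, SE 0.046) and the repressor HBP1 (0.90, SE 0.055). BTG1 (chromosome 12, 92140278 to 92145846) stood at 157, 172 and 175 CPM in DMSO and 315, 332 and 328 CPM in GDC, with an adjusted p of 3.00e-11. Its libraries did not overlap between the arms. Other CDK inhibitors fell, namely CDKN1A (-0.75, SE 0.062) (p21), CDKN2C (-0.44, SE 0.072), CDKN2D (-0.50, SE 0.11) and CDKN2B (-0.94, SE 0.37, adjusted p = 0.0479), and p27, encoded by CDKN1B, did not pass. CDKN2B was at about 1 CPM or less, and its call was lost in 11 of 19 alternative fits. The antiproliferative gene TOB1 (-0.24, SE 0.051) and the pocket protein RBL1 (-0.29, SE 0.065) also fell. CDKN1A (chromosome 6, 36676460 to 36687337) stood at 88.2, 79.8 and 79.1 CPM in DMSO and 49.2, 50.0 and 47.2 CPM in GDC, with an adjusted p of 2.88e-08. All 3 GDC libraries were below all 3 DMSO libraries. Of the D-type cyclins, CCND3 (-0.58, SE 0.058) fell and CCND1 (-0.026, SE 0.041, adjusted p = 0.643) did not pass.

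**Figure D3:**
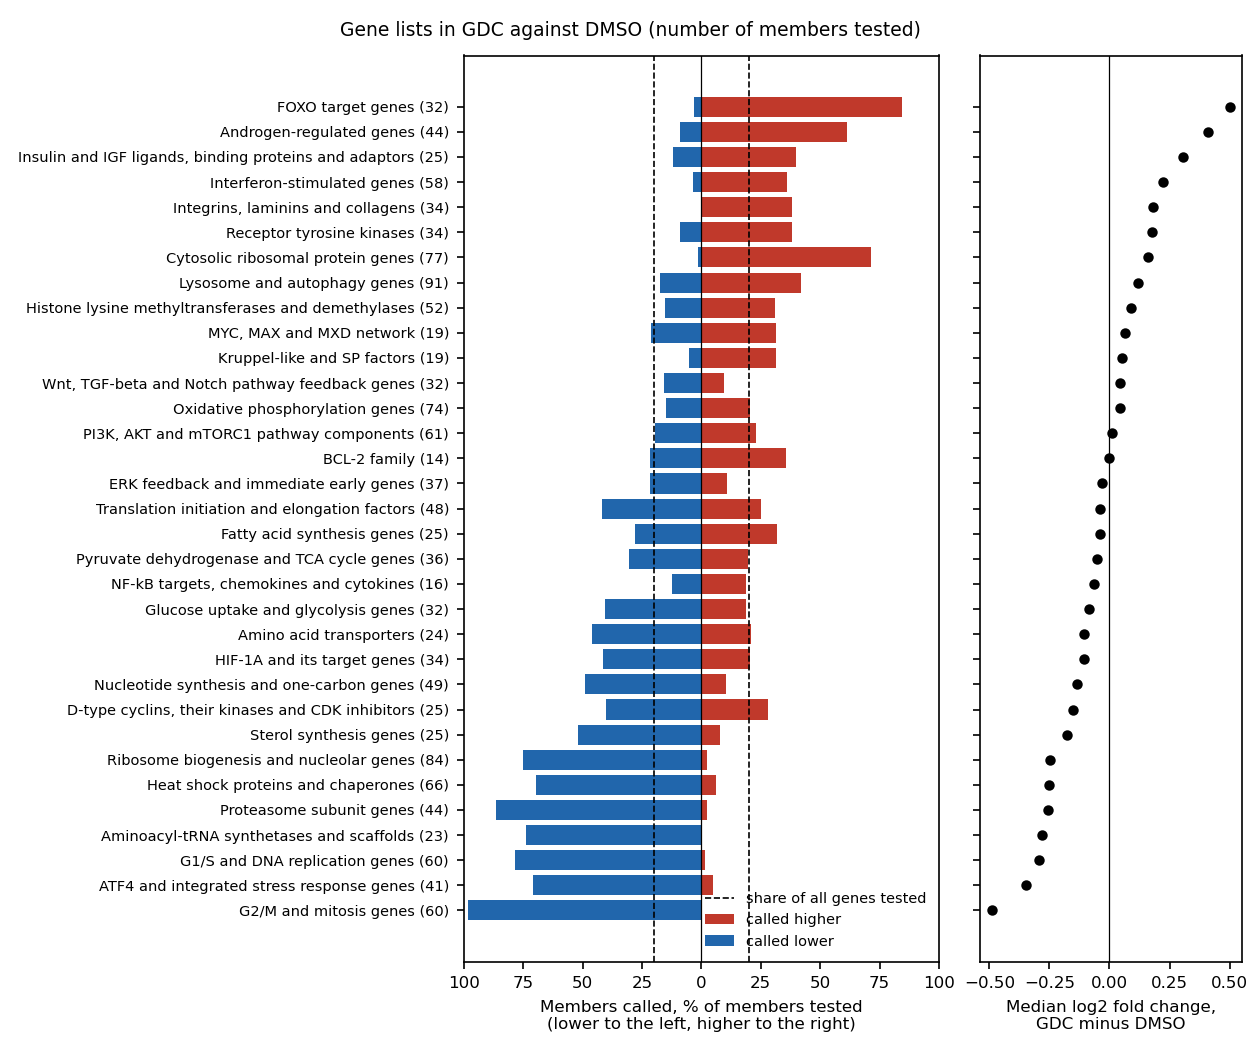
Share of the tested genes of each of 33 gene lists called higher or lower in GDC against DMSO (bars, percent) and the median log2 fold change of each list (points). The G2/M, G1/S, proteasome, ribosome biogenesis and ATF4 lists lie almost wholly on the lower side, the FOXO, androgen-regulated and ribosomal protein lists on the higher side, with 20.0% of all genes called in each direction.

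Androgen-regulated genes rose. Of 44 genes tested 27 rose and 4 fell, with a median log2 fold change of 0.41. KLK3 (chromosome 19, 50854915 to 50860764), which encodes prostate-specific antigen, stood at 539.6, 637 and 613 CPM in DMSO and 1164, 1212 and 1091 CPM in GDC. It rose by a log2 change of 0.95 (SE 0.069, adjusted p = 4.85e-09), without overlap. TMPRSS2 (chromosome 21, 41464300 to 41531116), a membrane protease gene, stood at 56.7, 60.4 and 55.3 CPM in DMSO and 139, 149.8 and 123 CPM in GDC. The arms did not overlap, the log2 change was 1.26 (SE 0.092, adjusted p = 5.85e-09), and exons of TMPRSS2 overlap MX1.

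Further androgen-regulated genes that rose, with log2 fold changes in parentheses, were the chemokine receptor CXCR7 (1.22, SE 0.061), the retinaldehyde dehydrogenase ALDH1A3 (1.09, SE 0.085), prostatic acid phosphatase (ACPP (0.94, SE 0.066)), prostein (SLC45A3 (0.94, SE 0.086)), KLK2 (0.77, SE 0.095) and the prostate-specific membrane antigen gene FOLH1 (0.40, SE 0.037). The rise did not extend to the whole list, since the cochaperone FKBP5 (-0.11, SE 0.043, adjusted p = 0.0509) and the homeobox factor HOXB13 (0.10, SE 0.047, adjusted p = 0.102) did not pass. The steroid-glucuronidating enzyme UGT2B15 (-0.80, SE 0.19), the condensin subunit NCAPD3 (-0.37, SE 0.045), MPHOSPH9 (-0.27, SE 0.061) and the acyl-CoA synthetase ACSL3 (-0.26, SE 0.063) fell. Many of these genes also mark luminal prostate cells, and 6 of 11 luminal markers rose and 1, the keratin KRT18 (-0.22, SE 0.049), fell, while 2 to 4 were called lower whichever library was left out. Of the other marker lists, basal markers summed to between 117 and 129 CPM in DMSO and to at most 124 CPM in GDC, and neuroendocrine markers to between 78.9 and 83.8 CPM and between 94.0 and 98.0 CPM. The basal sum came almost wholly from ITGA6 and DST (means of 98.9 and 23.8 CPM in DMSO), with KRT5 and TP63 at 0.018 CPM. The neuroendocrine sum came mostly from UCHL1 and ENO2 (means of 70.3 and 6.70 CPM in DMSO), with CHGA at 0.147 CPM. Fibroblast markers summed to between 48.2 and 57.1 CPM in DMSO and between 53.7 and 63.5 CPM in GDC, leukocyte markers to at most 9.12 CPM and endothelial markers to at most 7.78 CPM in any of the 6 libraries.

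**Figure D4:**
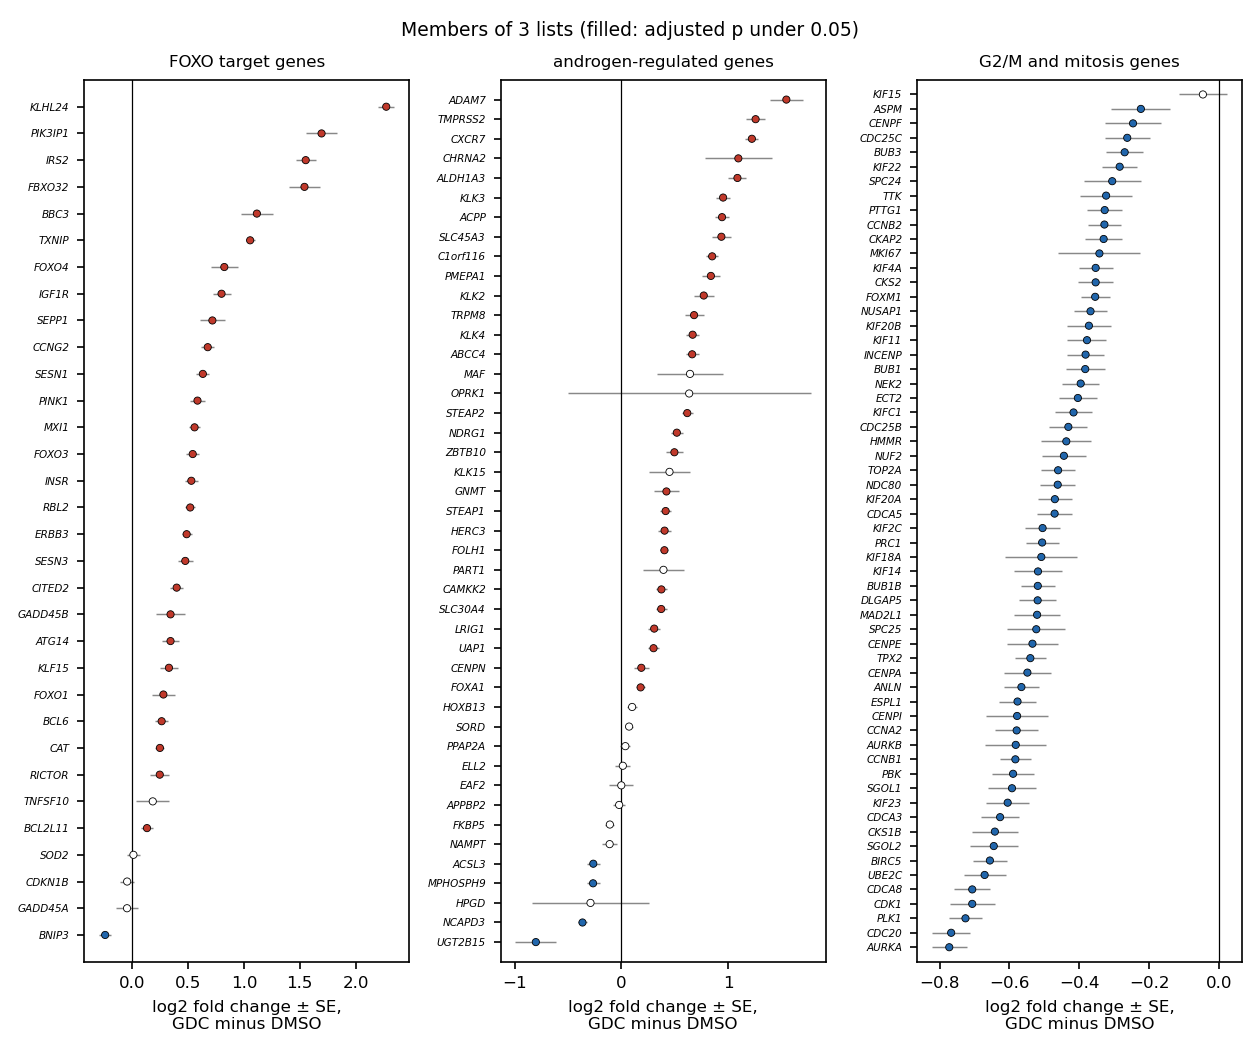
Log2 fold change in GDC over DMSO with its SE (x axis) for the tested members of the FOXO, androgen-regulated and G2/M lists (y axis), with filled points for genes past the threshold and open points for the others. FOXO members spread from -0.24 to 2.27 with 27 above 0 and called, and 59 of the 60 G2/M genes are called below 0.

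Genes of the integrated stress response and of amino acid supply fell. ATF4 is a transcription factor translated under amino acid shortage or when mTORC1 is active, and of 41 genes on its list 29 fell and 2 rose, with a median log2 fold change of -0.35. ATF4 (chromosome 22, 39519695 to 39522683) stood at 488, 535 and 521 CPM in DMSO and 405, 399 and 412 CPM in GDC. It fell without overlap, with a log2 change of -0.35 (SE 0.043, adjusted p = 3.97e-06). SLC7A11 (chromosome 4, 138164097 to 138242349), which imports cystine for glutathione synthesis, stood at 238, 188 and 210.4 CPM in DMSO and 113, 115 and 124 CPM in GDC. It fell by a log2 change of -0.85 (SE 0.069, adjusted p = 2.17e-08), without overlap. The serine synthesis enzyme PSAT1 (-0.68, SE 0.043) and the pseudokinase TRIB3 also fell, and the members that rose were PPP1R15A (0.45, SE 0.17), a phosphatase subunit that ends the response, and NUPR1 (0.27, SE 0.044). PPP1R15A was not called in 10 of 20 alternative fits, including those without DMSO A, B or C or GDC A or B, with adjusted p of up to 0.171. The transcription factor DDIT3 (-0.17, SE 0.11, adjusted p = 0.220) (CHOP) and the enzyme PHGDH (-0.083, SE 0.044, adjusted p = 0.140) did not pass. Of 20 cytosolic aminoacyl-tRNA synthetases, which charge tRNAs, 15 fell and 0 rose, with a median log2 fold change of -0.28, and 2 of 3 scaffold proteins of their complex fell. Of 24 amino acid transporters 11 fell and 5 rose. The members that fell included the leucine transporter pair SLC7A5 (-0.55, SE 0.053) and SLC3A2 (-0.52, SE 0.053) and the glutamine transporter SLC1A5 (-0.47, SE 0.057). The motif TGATGNAAT, a form of the site that ATF4 binds with C/EBP partners, was in 0 of 34 ATF4 list promoters, which says only that these letters are not in the window searched.

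The machinery that makes proteins split by step. Of 77 cytosolic ribosomal protein genes 55 rose and 1 fell, with a median log2 fold change of 0.16, whereas of 84 ribosome biogenesis and nucleolar genes 63 fell and 2 rose, with a median of -0.25. The ribosomal protein changes were small, and their count fell to between 30 and 33 without DMSO A, DMSO C, GDC A or GDC B, with a median of 0.091 without DMSO A. RPL13A (chromosome 19, 49487510 to 49493057) stood at 59.9, 58.1 and 62.2 CPM in DMSO and 106, 110.5 and 109 CPM in GDC. It rose most among them, without overlap, with a log2 change of 0.85 (SE 0.049, adjusted p = 2.12e-10), and it has 25 annotated pseudogenes, while the member that fell, RPL9 (-0.44, SE 0.064), has 18, so reads may be split among copies. Of 48 translation factors 12 rose and 20 fell. The elongation factor EEF2 (0.36, SE 0.040), the initiation factor EIF4B (0.45, SE 0.038) and the initiation inhibitor PDCD4 (0.62, SE 0.055) rose, and the cap-binding protein EIF4E (-0.47, SE 0.056) fell. The E-box CACGTG, which MYC and related factors bind, was in 26 of 71 ribosome biogenesis promoters (36.6%) and in 10.2% of those of tested genes.

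Genes of protein folding and degradation fell. Of 66 heat shock proteins and chaperones 46 fell and 4 rose (1 or 2 whichever DMSO or GDC library was left out), with a median log2 fold change of -0.25, and of 44 proteasome genes 38 fell and 1 rose, with a median of -0.26. HSPH1 (chromosome 13, 31134973 to 31162388), a nucleotide exchange factor of HSP70, stood at 947, 935 and 937 CPM in DMSO and 553, 546 and 554 CPM in GDC. It fell without overlap, with a log2 change of -0.77 (SE 0.039, adjusted p = 4.41e-11). The small heat shock protein HSPB8 (-0.73, SE 0.18), the HSP40 gene DNAJB1 (-0.54, SE 0.045) and the inducible HSP90 gene HSP90AA1 (-0.40, SE 0.035) fell too. The heat shock element GAANNTTC was in 11 of 60 promoters of the chaperone list (18.3%) and in 4.66% of those of tested genes. The regulatory subunits PSMD11 (-0.52, SE 0.045) and PSMD12 (-0.48, SE 0.055) fell, and the proteasome gene that rose was PSME1 (0.43, SE 0.059), a subunit of the activator that interferon induces. The immunoproteasome subunit PSMB8 (0.70, SE 0.17), held on the interferon list, rose as well, but was not called without DMSO C (adjusted p = 0.0827).

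Lysosome and autophagy genes rose more often than they fell, with 38 of 91 higher, 16 lower and a median log2 fold change of 0.12 (0.061 without DMSO A, 0.068 without GDC B and 0.077 without GDC C). CTSF (chromosome 11, 66563464 to 66568879), a lysosomal cysteine protease, stood at 34.6, 42.6 and 39.2 CPM in DMSO and 82.8, 69.8 and 80.7 CPM in GDC. It rose without overlap, with a log2 change of 0.98 (SE 0.074, adjusted p = 7.96e-09). The autophagy receptors OPTN (0.87, SE 0.12) and NBR1 (0.58, SE 0.048), the initiating kinases ULK1 (0.39, SE 0.056) and ULK2 (0.45, SE 0.063) and the LC3 gene MAP1LC3B (0.46, SE 0.065) rose, and the LC3-processing protease ATG4D (-0.54, SE 0.096) and the conjugation factor ATG16L1 (-0.40, SE 0.068) fell.

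Metabolic genes moved in smaller and mixed ways. Of 32 glucose uptake and glycolysis genes 13 fell and 6 rose, with a median log2 fold change of -0.08, and without DMSO C or GDC A 2 or 3 were called higher. LDHA (chromosome 11, 18394560 to 18408425), the lactate dehydrogenase subunit that favours lactate formation, stood at 1527, 1472 and 1454 CPM in DMSO and 946, 952 and 907 CPM in GDC. It fell without overlap, with a log2 change of -0.67 (SE 0.039, adjusted p = 2.18e-10), and it has 6 annotated pseudogenes. The insulin-responsive glucose transporter SLC2A4 (0.73, SE 0.16) rose with SLC2A12, while SLC2A1 (-0.41, SE 0.054), the main basal transporter, and HK2 (-0.40, SE 0.060), a hexokinase, fell. Of 34 genes of the HIF-1A list 14 fell and 7 rose (4 without GDC A), and VEGFA, the angiogenic growth factor, fell by 0.63 on the log2 scale (SE 0.086). Of 36 pyruvate dehydrogenase and TCA cycle genes 7 rose and 11 fell, and 4 were called higher without DMSO A, DMSO C or GDC A. The increases included OGDHL (0.81, SE 0.076), which resembles a subunit of the oxoglutarate dehydrogenase complex, and PDK2 (0.63, SE 0.069), which inhibits pyruvate dehydrogenase. Of 74 oxidative phosphorylation genes 15 rose, close to the 20.0% of all genes, and 11 fell, below the 20.0% of all genes in that direction. Their median log2 fold change was 0.04, and 8 or 9 were called higher without GDC A or DMSO C.

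Sterol and nucleotide synthesis genes fell more often than they rose. Of 25 sterol synthesis genes 13 fell and 2 rose, with a median log2 fold change of -0.18, and 1 was called higher without DMSO A, B or C or GDC A or B. The isomerase EBP (-0.52, SE 0.056), the cholesterol transporter STARD4 (-0.50, SE 0.13) and INSIG1 (-0.41, SE 0.062), a feedback inhibitor of the pathway, fell, while the reductase TM7SF2 (0.61, SE 0.048) rose. Of 25 fatty acid synthesis genes 8 rose and 7 fell, and fatty acid synthase itself, FASN (-0.010, SE 0.063, adjusted p = 0.916), did not pass. Without DMSO A, DMSO C, GDC B or GDC C, 5 genes of this list were called higher. Of 49 nucleotide and one-carbon genes 24 fell and 5 rose, and 2 or 3 were called higher whichever library of these arms was left out. The falling members included MTHFD2 (-0.51, SE 0.049), a mitochondrial folate enzyme, and PSPH (-0.57, SE 0.050), an enzyme of serine synthesis.

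The MYC, MAX and MXD network held opposing members. MYC (chromosome 8, 127735434 to 127742951) stood at 249, 263 and 249 CPM in DMSO and 437, 431 and 437 CPM in GDC. It rose without overlap, with a log2 change of 0.78 (SE 0.051, adjusted p = 1.43e-09). Of the MAX-binding antagonists of MYC, MXD4 (0.68, SE 0.059), MXI1 and MNT (0.37, SE 0.062) rose, and MXD1 (0.030, SE 0.12, adjusted p = 0.874), MXD3 (0.063, SE 0.11, adjusted p = 0.692) and MGA (0.26, SE 0.12, adjusted p = 0.0878) did not pass. ODC1 (-0.48, SE 0.038), a MYC target that makes polyamines, fell. In all 6 of 19 genes rose and 4 fell. Of 37 ERK feedback and immediate early genes 4 rose and 8 fell. The ERK phosphatases diverged, with DUSP4 (0.78, SE 0.082) higher and DUSP5 (-1.08, SE 0.26) lower. Of 14 BCL-2 family genes 5 rose, all of them proapoptotic (BBC3, BMF (0.69, SE 0.071), BIK (0.36, SE 0.078), BOK (0.35, SE 0.056) and BCL2L11 (0.13, SE 0.051)), and 3 fell, of which PMAIP1 (-0.77, SE 0.11) and BAK1 (-0.48, SE 0.089) are proapoptotic and BCL2L2 (-0.28, SE 0.059) is antiapoptotic. The call of BCL2L11 was lost in 19 of 20 alternative fits, with adjusted p of up to 0.522.

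Genes of the cell surface, of interferon response and of chromatin made up the remaining groups. Of 34 integrins, laminins and collagens 13 rose and 0 fell, with a median log2 fold change of 0.18, and fibronectin, FN1 (chromosome 2, 215360440 to 215436073), stood at 298, 264 and 277 CPM in DMSO and 445, 459.7 and 513 CPM in GDC. FN1 rose without overlap, with a log2 change of 0.76 (SE 0.078, adjusted p = 3.90e-07), as did ITGB4 (1.09, SE 0.20), an integrin of hemidesmosomes, and COL12A1 (0.97, SE 0.10). Of 58 interferon-stimulated genes 21 rose and 2 fell, with a median log2 fold change of 0.22. The increases included IFITM1 (1.06, SE 0.14) and the other members IFITM2 (0.39, SE 0.098) and IFITM3 (0.37, SE 0.049), which block virus entry, and STAT2 (0.48, SE 0.057), while the GTPase GBP2 (-1.07, SE 0.23) fell. Without DMSO C, 13 interferon-stimulated genes were called higher, in a fit that called 1844 of 14265 genes higher, and IFITM2 was not called (adjusted p = 0.107). Of 52 histone methyltransferases and demethylases 16 rose and 8 fell, and the catalytic subunits of PRC2 diverged, with EZH1 (0.57, SE 0.071) higher and EZH2 (-0.36, SE 0.054) lower, together with its partners EED (-0.37, SE 0.073) and SUZ12 (-0.24, SE 0.069). Of 19 Kruppel-like and SP factors 6 rose and 1 fell (3 without DMSO B or GDC B), led by KLF8 (1.46, SE 0.42) and KLF13 (0.74, SE 0.052) among those that rose. KLF8 was not called without DMSO C or GDC C (adjusted p = 0.126 and 0.0584). In the NF-kB list 3 of 16 genes were higher and 2 lower, against 20.0% of all genes in each direction. The Wnt, TGF-beta and Notch list had 3 of 32 higher and 5 lower. Among the 5 EGF-like ligands tested only HBEGF passed, and it was lower.

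GDC-0941 was also added to cells already under GSK126, and that comparison, COMBO against GSK, shares no library with the one above. It called 45.9% of genes, 19.0% higher and 26.9% lower, so that 41.4% of its calls were higher, against 52.3% with library totals. Of the 2841 genes higher in GDC, 1338 were also higher in COMBO than in GSK, which is 47.1% of the first list and 49.6% of the second, and 200 (7.04%) were lower. Of the 2843 genes lower in GDC, 1959 were also lower there, which is 68.9% and 51.3% of the lists, and 77 (2.71%) were higher. Of the 245 genes that rose by at least 1 in GDC, 124 were called higher in COMBO than in GSK, by any amount (50.6% of these genes and 4.60% of all those higher there). Of the 21 that fell by at least 1, 12 were called lower there (57.1% and 0.314%).

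The FOXO, cell cycle and androgen-regulated groups moved the same way in those libraries. Of the FOXO targets 21 rose and 3 fell, with a median log2 fold change of 0.48, and of the androgen-regulated list 26 rose and 9 fell, with a median of 0.28. Of the G2/M genes 59 fell and 0 rose, with a median of -0.96, and of the G1/S genes 59 fell and 0 rose, with a median of -1.03. The difference between the 2 effects of GDC-0941 was tested with the interaction term, which called 21.4% of genes, 4.86% with a more positive and 16.5% with a more negative change under GSK126. Positive calls were 22.7% of these, against 34.2% with DESeq2 size factors and 55.4% with no filter on low counts. It was more negative for 49 of 60 G2/M and 51 of 60 G1/S genes. RRM2 fell by 0.61 on the log2 scale without GSK126, and the change with it was -2.66 (interaction -2.04, SE 0.086, adjusted p = 1.05e-11).

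Other groups moved differently with GSK126 present. Of the ATF4 list 18 genes rose and 9 fell in COMBO over GSK, and the interaction was positive for 27 of 41. CHAC1, which had the largest decrease with GDC-0941 alone among called genes with a mean log2 CPM of at least 2, changed by 1.12 (SE 0.21) on the log2 scale when GDC-0941 was added to GSK126 (interaction 3.11, adjusted p = 7.10e-08), and SLC7A11 changed by 1.17 (SE 0.079, interaction 2.02, adjusted p = 1.12e-10). Of the ribosomal protein genes 3 rose and 13 fell, and the interaction was negative for 52 of 77. PDCD4 changed by -0.57 (SE 0.053, interaction -1.18, adjusted p = 2.01e-09), against an increase with GDC-0941 alone. Of the oxidative phosphorylation genes 68 of 74 fell, with a median log2 fold change of -0.41, and the interaction was negative for 70, while GDC-0941 alone called 15 higher and 11 lower. Of the 91 lysosome and autophagy genes 21 rose and 32 fell, not far above the 19.0% and 26.9% of all genes called in this comparison. No interaction count is given for that list.

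**Figure D5:**
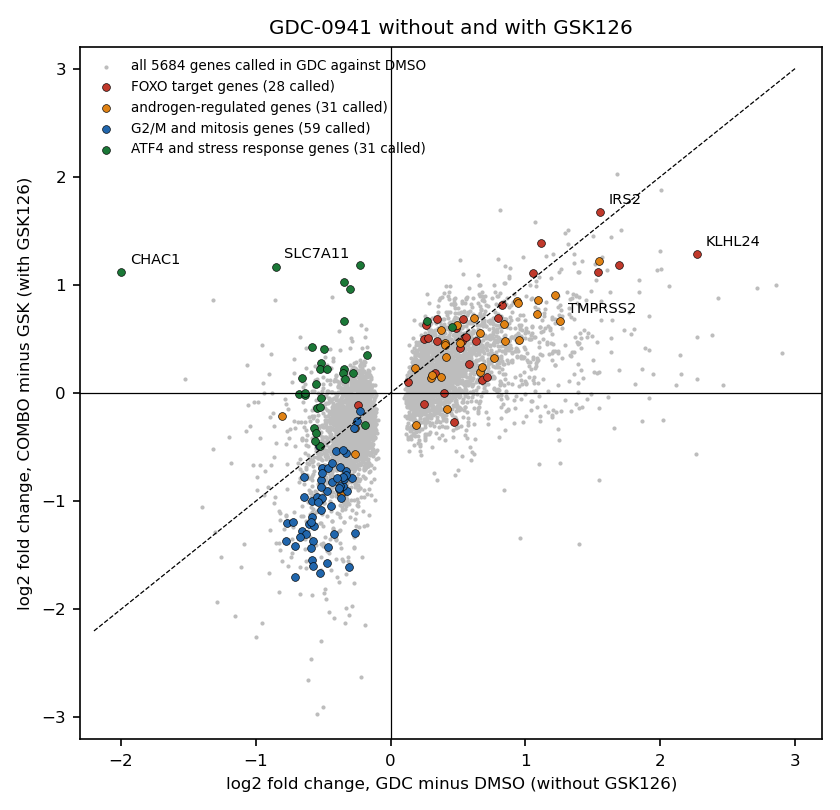
Log2 fold change with GDC-0941 alone (GDC over DMSO, x axis) against that with GDC-0941 added to GSK126 (COMBO over GSK, y axis). Only the 5684 genes called in GDC against DMSO are drawn, so the genes were picked on the x axis comparison. Called members of 4 lists are in colour, and 5 points lie outside the axes. FOXO and androgen-regulated members lie mostly at the upper right, G2/M members at the lower left below the diagonal, and ATF4 members left of 0 on the x axis with both signs on the y axis.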

How the data were processed

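C4.2B cells were profiled by polyA RNA-seq in 12 libraries, 3 per arm, of which the DMSO and GDC libraries were compared here. The authors aligned reads to hg38 with STAR, counted them per gene symbol with HTSeq and normalized them with DESeq2. Versions, annotation and the use of strand are not given in the sources used here. The deposited files hold whole-number counts, 1 value per gene symbol and library, without normalization, and their 5 closing summary lines were left out. The deposited normalized table holds signal that the authors made by dividing counts by size factors, and it was not used.

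Counts of all 12 libraries were fitted together with edgeR 4.0.16 (R 4.3.3), using its quasi-likelihood test (TMM scaling, filterByExpr, 1 coefficient per arm, no covariate, common biological coefficient of variation 0.0499), with two-sided tests and Benjamini-Hochberg adjustment over 14189 genes. SE is the coefficient divided by the root of its F statistic. A chi-square test of counts gave values per degree of freedom of at least 1.76 between replicates, which is above sampling noise, and each library counts once. A count of 0 allows up to 3 counts, and such floors cover counting error only. COMBO was compared with GSK, and the interaction was COMBO minus GSK minus GDC plus DMSO.

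The genes named were, by rule, the 15 largest changes in each direction (adjusted p under 0.05, mean log2 CPM of at least 2, no overlap between arms), the 3 largest called changes of each list and the genes the study discusses. Other list members named were chosen after their values were seen. Members, lists, motifs and promoters were chosen with earlier results of these data known. A few genes are not reported here and were left out of the lists. Coordinates are from GENCODE 44, which placed 21466 symbols (92.4%). Promoters are from RefSeq (GRCh38.p14). Alternatives were DESeq2 1.42.0, DESeq2 size factors, library totals, other filters, fits of the compared arms, a replicate block, thinning every library to 8785218 counts and fits without each library. The scripts were tested on simulated data.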

Additional observations from a re-analysis of the deposited data

Results flagged for a closer look

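Among the named genes, 65 were singled out because the change with GDC-0941 differed between cells with and without GSK126. The difference itself was tested with the interaction term (edgeR, adjusted p under 0.05), and each value in parentheses is the log2 change with GSK126 minus that without it. These genes were named for their change with GDC-0941 alone. The interaction contains the same GDC and DMSO values, so genes picked for a large change lean toward a smaller one with GSK126. The balance of its signs also depends on the scaling and on the filter, as given above. Groups of 3 libraries were too small to be tested for outlying samples.

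Of these, 24 rose in both settings, by less with GSK126, namely KLHL24 (-0.99), TCP11L2 (-0.86), C11orf92 (-0.91), PIK3IP1 (-0.51), SLC2A12 (-0.69), SEMA6D (-0.85), C17orf103 (-0.60), LTBP2 (-0.51), PBXIP1 (-0.91), SHC2 (-1.08), TM7SF2 (-0.34), CDKN1C (-0.68), BTG1 (-0.40), TMPRSS2 (-0.59), CXCR7 (-0.31), OPTN (-0.44), RPL13A (-0.67), RPL3 (-0.28), OGDHL (-0.53), BMF (-0.29), KLF13 (-0.22), NOTCH3 (-0.29), COL12A1 (-0.44) and KLK3 (-0.46). Of these, 12 rose without GSK126 and did not pass the threshold in COMBO against GSK, namely PDGFRB (-0.97), SCD5 (-0.70), SUCLG2 (-0.26), COX6C (-0.37), MXD4 (-0.68), PGLS (-0.44), SAMD9 (-2.13), IFITM1 (-0.93), TNFAIP2 (-0.30), ITGB4 (-0.76), COL9A2 (-0.74) and VWF (-1.01). Of these, 3 rose without GSK126 and fell with it, namely PDCD4 (-1.18), NDUFV1 (-0.52) and UCHL1 (-0.39). Of these, 15 fell in both settings, by more with GSK126, namely TUBA4A (-1.18), TUBA1C (-0.76), KPNA2 (-0.54), EBP (-0.68), SLC16A10 (-0.63), CDC25A (-0.55), RRM2 (-2.04), CDC6 (-1.87), AURKA (-0.60), CDC20 (-0.43), PLK1 (-0.47), LDHA (-0.47), CYCS (-0.30), KIAA1524 (-0.32) and EZH2 (-0.33). Of these, 1 fell in both settings, by less with GSK126, namely PSPH (0.24). Of these, 8 fell without GSK126 and did not pass the threshold with it, namely HBEGF (0.95), WNT5A (0.93), GPX8 (0.88), PSAT1 (0.67), GARS (0.45), RPL9 (0.27), VEGFA (0.64) and ID1 (0.63). Of these, 2 fell without GSK126 and rose with it, namely CHAC1 (3.11) and SLC7A11 (2.02).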

How the results depend on the processing

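Leaving out 1 library at a time gave 1844 to 2879 genes higher and 2755 to 3445 lower in GDC against DMSO, 2340 to 3088 higher and 3000 to 3736 lower in COMBO against GSK, and 2014 to 2986 in the interaction. The lowest counts of genes higher in GDC (1844) and of the interaction (2014) came without DMSO C, the deepest library. Calls that also needed a log2 fold change of 0.5 or more in size were 941 higher and 315 lower in GDC, 906 higher and 1090 lower in COMBO against GSK, and 966 in the interaction. At a fold change of at least 1 they were 245 and 21, 157 and 265, and 189, respectively. These counts are lower by construction. Under DESeq2, other scalings and other filters the counts stayed within 1.5 times, but the share of GDC calls that were higher ranged from 35.9% with no filter and 38.7% with DESeq2 to 58.5% with library totals.

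Of 131 genes named by rule and fitted, 129 were called and 117 of them were called in every alternative, and no result reversed its direction. FLT3, EIF4EBP3, PIK3R5, MLXIPL, SCD5, CDKN2B, IDUA, SAMD9, KLF8, ICAM1, ENO2 and ACTA2 of these lost their call in at least 1 alternative, most of them without DMSO C. The medians of the FOXO, androgen-regulated, G2/M, G1/S, ATF4, ribosomal protein and proteasome lists kept their sign in all 20 alternative fits, while those of the oxidative phosphorylation, PI3K and mTORC1, MYC network, Kruppel-like, BCL-2 and Wnt lists did not. Of 800 list medians in these fits, 221 moved by more than the SD between replicates. With the replicate letter as a block, 2801 genes were higher and 2758 lower. The letters did not pair the samples, since the deviations of DMSO and GDC libraries with the same letter correlated at -0.084, -0.040 and -0.038. With 3 plates of 1 line per arm and depths that differ several-fold, small changes in low-count genes were not detectable.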

Other observations

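Some gene families that were not lists of their own were also described, and several have members among the largest changes. The sestrins do not, and SESN1 and SESN2 are on lists above. These families were chosen after their values were seen and carry no test as families. All 4 YPEL genes tested, of 5 in the family, rose with GDC-0941, with a median log2 fold change of 1.34, and all 4 also rose in COMBO over GSK. These genes encode small zinc-binding proteins, and YPEL3 is known as a growth suppressor. Of 4 class 6 semaphorins, which are membrane-bound guidance molecules, 3 rose. Of 21 tubulin genes tested, the building blocks of microtubules, 13 fell and 1 rose, with a median log2 fold change of -0.41, and 16 fell in COMBO over GSK. Tubulin genes are similar in sequence, so reads may be split among them. Of 6 importin alpha genes tested 4 fell. The sestrins, stress proteins that inhibit mTORC1, diverged, with log2 fold changes of 0.63 for SESN1, 0.47 for SESN3 and -0.55 for SESN2.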
